A study of Mus musculus with 14 samples.

Results

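The genes described here are 5 osteoclast-regulating cytokine genes and their receptors, selected by symbol from the 55427 genes of the annotated table: Tnfsf11 (RANKL), Tnfrsf11b (osteoprotegerin, OPG), Tnfrsf11a (RANK), Csf1 (M-CSF) and Il34 (IL-34). All 5 were also among the 30503 genes of the count table. RNA was sequenced from 14 single-cell-derived clones of tdTomato+ bone marrow stromal cells, grown from mouse femurs whose distal growth plates had been removed. The WT clones (n = 5) came from Fgfr3-creER; R26R(tdTomato/+) mice at postnatal day 23 (P23), and the p53 cKO clones came from Fgfr3-creER; Trp53fl/fl; R26R(tdTomato/+) mice at P28 (n = 5) or at 4 months (P4M, n = 4). Tamoxifen was given at P21 to all mice, so that Cre-expressing cells became red in every group and lost p53, the tumour suppressor encoded by Trp53, in the cKO groups alone. Each library was 1 clone, listed at passage 8 for WT and P28 and at passage 6 to 8 for P4M. The authors' methods give passage 6 to 8 for both cKO groups. The labels do not tie clones to mice, so that p-values measure the spread between clones. The names of the WT libraries carry the number 1303 and those of all cKO libraries the number 2963. The labels do not say what this number marks, but whatever it stands for cannot be told apart from genotype in either comparison with WT, whereas P4M and P28 clones share it. The age at isolation and the time since tamoxifen also differ between WT and both cKO groups, and cannot be told apart from genotype either. P4M and P28 clones differ in both and may differ in passage. The authors also report that cKO clones grew faster in culture than WT clones and that a larger share of them survived passaging. An equal passage number therefore does not mean an equal time in culture. Time in culture and the survival of clones cannot be told apart from genotype in either comparison with WT.

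Osteoclasts are the bone-resorbing cells of the haematopoietic lineage, and skeletal stromal cells control their formation. RANKL on the stromal surface engages RANK on osteoclast precursors and signals through TRAF6 and NF-kB, while OPG is a secreted decoy that captures RANKL. M-CSF and IL-34 are alternative ligands of CSF1R, the receptor that keeps precursors alive and dividing.

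The libraries held 25688946 to 38958693 counts in WT, 37606033 to 48648618 in P28 cKO and 43757832 to 52857424 in P4M cKO clones. Levels are given as CPM, read counts scaled to library size and by TMM factors, or as TPM, which also corrects for gene length. Trp53 was 55.0 ± 7.67 CPM in WT, 2.47 ± 0.243 in P28 cKO and 2.09 ± 0.277 in P4M cKO clones (SD). As to stromal identity, Prrx1, a limb mesenchyme transcription factor, ranged from 45.1 to 235 CPM in WT, from 4.53 (replicate 5) to 789 in P28 cKO and from 143 to 256 in P4M cKO clones. Pdgfra, a mesenchymal receptor, was between 11.1 and 100 CPM in all 14 clones. Col1a1, the main bone matrix collagen, was 1.45 to 1028.3 CPM in WT and 7372.5 to 50611.1 CPM in cKO clones. The pan-haematopoietic gene Ptprc did not exceed 0.154 CPM, and the endothelial gene Pecam1 did not exceed 0.287 CPM.

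In mm10, Tnfsf11 (ENSMUSG00000022015) spans chr14:78277445-78308043 on the minus strand, Tnfrsf11b (ENSMUSG00000063727) chr15:54250619-54278484 on the minus strand and Tnfrsf11a (ENSMUSG00000026321) chr1:105780718-105847981 on the plus strand. Csf1 (ENSMUSG00000014599) spans chr3:107741048-107760469 and Il34 (ENSMUSG00000031750) chr8:110741829-110805924, both on the minus strand. The 2 genes Gm15894 and Gm15895 lie antisense to Il34, and since the library kit keeps no strand, their reads cannot be told apart from those of Il34. RefSeq promoter windows (GRCm38.p6, 250 bases before to 50 after the start) were matched for 3 members, Tnfsf11, Tnfrsf11a and Csf1. The 250 bases before the start are shown for Tnfsf11 and Tnfrsf11a, the ligand and receptor that were at or near 0 counts in WT clones and present in every P28 cKO clone. Each is written 5′ to 3′ on the gene's strand, with CpG dinucleotides in capitals (Tnfsf11, chr14:78308044-78308293; Tnfrsf11a, chr1:105780473-105780722).
Tnfsf11: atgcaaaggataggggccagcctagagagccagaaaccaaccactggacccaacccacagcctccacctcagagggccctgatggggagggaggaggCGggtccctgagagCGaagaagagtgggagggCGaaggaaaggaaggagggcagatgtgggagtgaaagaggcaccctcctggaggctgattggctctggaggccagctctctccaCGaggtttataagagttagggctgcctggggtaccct
Tnfrsf11a: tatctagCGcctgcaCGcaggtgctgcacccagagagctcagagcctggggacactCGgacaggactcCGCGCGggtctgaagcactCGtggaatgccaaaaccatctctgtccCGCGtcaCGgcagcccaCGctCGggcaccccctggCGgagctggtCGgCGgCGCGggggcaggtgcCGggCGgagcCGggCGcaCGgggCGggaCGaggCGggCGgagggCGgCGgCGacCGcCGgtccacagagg
The stretches differ in composition. That of Tnfsf11 holds 4 CpG and 60.4% G and C, and has the letters TATAA 30 bases before the start. That of Tnfrsf11a holds 31 CpG and 73.6% G and C, with no TATAA 40 to 20 bases before the start. Over 32851 promoters the median was 6 CpG, the middle range ran from 2 to 16, and 3.52% had TATAA in that position. None of the 3 windows matched the RUNX core TGTGGT (16.8% of promoters on either strand), the AP-1 motif TGANTCA (7.81%) or the p53 response element of 2 adjoining half-sites (0.00913%).

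To learn how the RANKL, RANK and OPG genes stood in clones lacking p53, P28 cKO clones were compared with WT clones. Tnfrsf11b fell by 3.96 on the log2 scale, and Tnfsf11 was detected in 5 of 5 P28 clones and in 0 of 5 WT clones. Tnfrsf11a had 0 to 4 counts in WT and 21 to 94 in P28 clones, with a fitted difference of 4.69. Tests across genes used edgeR's quasi-likelihood F-test with Benjamini-Hochberg adjustment over 17358 genes, with adjusted p below 0.05 as the threshold. Of the 4 members that passed the filter on low counts, 1 was called higher and 1 lower, beside 38.9% of all genes called (19.2% higher, 19.7% lower). The 1 called higher was Tnfrsf11a, which passed the filter only through the P28 clones, so nothing is read from that call. Over all genes the median log2 difference was -0.02. Tnfsf11 did not pass that filter, and its difference in CPM was examined with an exact permutation test, two-sided.

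Tnfrsf11b, the RANKL decoy, was high in every WT clone. Its level was 195, 695, 928, 267 and 364 CPM in WT replicates 1 to 5, 35.0, 43.7, 18, 41.1 and 19.3 CPM in P28 cKO replicates 1 to 5, and 24.8, 68.4, 8.07 and 35.9 CPM in P4M cKO replicates 1 to 4. All 9 cKO clones were below the lowest WT clone, and the cKO groups overlapped one another. The share of all genes whose groups separate in this way was not taken. Separation of groups is therefore a description only, for this gene and for those below. The means were 490 ± 311 (SD, n = 5), 31.4 ± 12.1 (n = 5) and 34.3 ± 25.5 CPM (n = 4). The fitted level was 15.6-fold lower in P28 cKO than in WT clones (log2 difference -3.96, SE 0.595, edgeR adjusted p = 0.000325). It was 14.3-fold lower in P4M cKO than in WT clones (-3.84, SE 0.65, edgeR adjusted p = 0.000514). P4M and P28 clones did not differ beyond their spread (0.13, SE 0.56, edgeR adjusted p = 0.915).

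Tnfsf11, which encodes RANKL, had 0 counts in all 5 WT clones, where 3 counts, the limit that a count of 0 allows, would be 0.0853 to 0.121 CPM per library. P28 cKO replicates 1 to 5 had 19, 61, 39, 5 and 9 counts, or 0.408, 1.46, 0.775, 0.101 and 0.23 CPM. P4M cKO replicates 1 to 4 had 8, 0, 2 and 11 counts, or 0.184, 0, 0.0395 and 0.207 CPM. Thus each P28 clone was above each WT clone, while 1 P4M clone was at 0 like the WT clones. At the depth of the shallowest WT library, the P28 clones would have had 2.49 to 36.0 counts. Pooled over the clones of a group, 133 counts in P28 cKO against 0 in WT made the level at least 27.7-fold higher, with the floor set at 3 counts over the WT group. The difference in mean was 0.594 CPM (exact permutation p = 0.00794, the smallest p possible for 5 against 5 clones). For P4M cKO against WT, 21 counts against 0 made the pooled level at least 5.2-fold higher, but the difference of 0.108 CPM did not pass (exact permutation p = 0.0952). An edgeR fit without the filter put both differences past the threshold (adjusted p = 0.00414 for P28 and 0.0401 for P4M), and called 22.3% and 26.7% of all genes there. Without P28 cKO replicate 2 the P28 difference was 0.379 CPM (exact permutation p = 0.0159, again the smallest possible). As every WT clone was at 0 and every P28 clone above it, these permutations could give no larger p.

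Tnfrsf11a encodes RANK, the receptor of RANKL on osteoclast precursors. WT replicates 1 to 5 had 3, 0, 0, 4 and 0 counts. P28 cKO replicates 1 to 5 had 21, 73, 37, 53 and 94 counts, or 0.451, 1.74, 0.735, 1.07 and 2.41 CPM, and P4M cKO replicates 1 to 4 had 8, 11, 17 and 12 counts, or 0.184, 0.25, 0.336 and 0.225 CPM. The 3 groups did not overlap, with P4M clones between WT and P28 clones, but at such low counts nothing is read from this order. The group means were 0.0423 ± 0.0582, 1.28 ± 0.793 and 0.249 ± 0.0638 CPM (SD). In P28 cKO against WT the log2 difference was 4.69 (SE 0.771, edgeR adjusted p = 0.000551), and the pooled counts gave a ratio of 24.8 with an exact 95% counting interval of 11.9 to 62.3. In P4M cKO against WT it was 2.34 (SE 0.793, edgeR adjusted p = 0.0274), with a pooled ratio of 5.09 (2.29 to 13.3). Of 14 fits that left out 1 clone, 3 lost the call for P4M, namely those without WT replicate 2 (adjusted p = 0.0527), WT replicate 3 (0.0507) or P4M cKO replicate 3 (0.0611). Without WT replicate 4, which had 4 of the 7 WT counts, the differences were 5.40 in P28 and 3.06 in P4M cKO clones. Tnfrsf11a passed the filter only through the P28 clones, where it was high, so nothing is read from its calls in comparisons with P28 clones. Intervals and floors cover counting error alone.

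**Figure D1:**
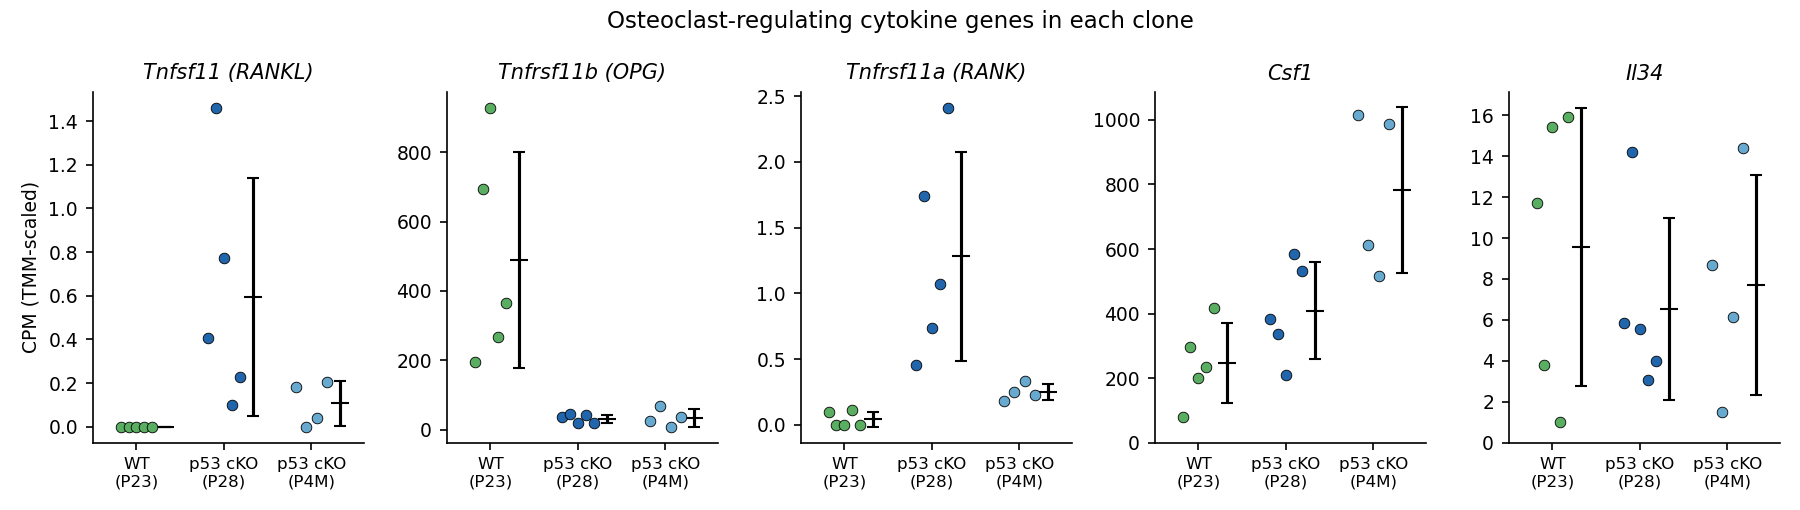
CPM (TMM-scaled, linear axes) of the 5 genes in each clone, with points for clones in replicate order and bars for the mean ± SD of WT (P23, n = 5), p53 cKO (P28, n = 5) and p53 cKO (P4M, n = 4) clones. Tnfrsf11b lies at 195 to 928 CPM in WT and at 8.07 to 68.4 CPM in cKO clones, whereas Tnfsf11 is at 0 in all WT clones and reaches 1.46 CPM in P28 cKO clones.

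The CSF1R ligands were next examined. Csf1 rose in P4M cKO clones relative to WT, and Il34 was not called in any comparison. In P4M cKO against WT clones, 2 of the 4 members tested were called higher (Tnfrsf11a and Csf1) and 1 lower (Tnfrsf11b), beside 45.9% of all genes called (22.3% higher, 23.6% lower; median of all genes -0.06).

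Csf1, which supports the survival and division of macrophages and osteoclast precursors, was 79.4, 298, 201, 235 and 417 CPM in WT replicates 1 to 5. It was 382, 337, 211, 585 and 532 CPM in P28 cKO replicates 1 to 5, and 1015.5, 612, 515 and 987 CPM in P4M cKO replicates 1 to 4. All 4 P4M clones were above every WT clone, while P28 clones overlapped both other groups. Means were 246 ± 124, 409 ± 151 and 782 ± 256 CPM (SD). The fitted level was 3.18-fold higher in P4M cKO than in WT clones (log2 difference 1.67, SE 0.41, edgeR adjusted p = 0.00528). The call held in all 14 fits without 1 clone (adjusted p = 0.00273 to 0.0185), but not when a log2 difference above 1 was required (adjusted p = 0.104). P28 cKO against WT gave 0.74 (SE 0.387, edgeR adjusted p = 0.148).

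Il34 was 11.7, 3.79, 15.4, 1.02 and 15.9 CPM in WT replicates 1 to 5. It was 5.87, 14.2, 5.54, 3.08 and 3.99 CPM in P28 cKO replicates 1 to 5 and 8.69, 1.52, 6.16 and 14.4 CPM in P4M cKO replicates 1 to 4. The groups overlapped throughout, and the clones of each group spread widely, with SDs of 71.2%, 67.9% and 69.6% of the mean. The log2 difference was -0.55 (SE 0.698) in P28 cKO against WT, -0.31 (SE 0.741) in P4M cKO against WT and 0.23 (SE 0.736) in P4M against P28 cKO (edgeR adjusted p = 0.563, 0.753 and 0.878).

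The P28 cKO clones also differed among themselves. Replicates 4 and 5, which had the least Prrx1 of the group (61.4 and 4.53 CPM, against 561 to 789 CPM in the other 3), had the most Csf1, at 585 and 532 CPM. The same clones had the least Tnfsf11, at 0.101 and 0.23 CPM, and the least Il34, at 3.08 and 3.99 CPM. Tnfrsf11b did not follow that division, with 41.1 CPM in replicate 4 and 19.3 CPM in replicate 5. Nor did Tnfrsf11a, with 1.07 CPM in replicate 4 and 2.41 CPM in replicate 5, against 0.451 to 1.74 CPM in the other 3. This is a description of 5 clones, with no test.

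**Figure D2:**
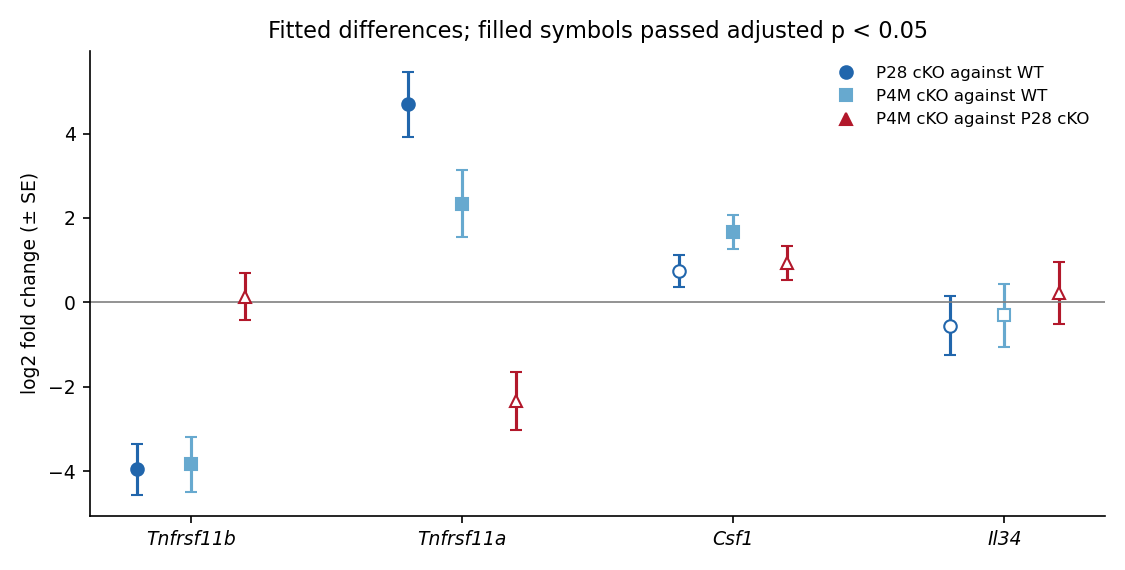
Fitted log2 differences (± SE, edgeR) for the 4 members that passed the filter, in 3 comparisons, with filled symbols for adjusted p below 0.05. Tnfrsf11b is near -4 in both comparisons with WT, at -3.96 and -3.84, Tnfrsf11a lies above 0 in both, and no symbol is filled for P4M against P28 cKO.

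To ask how the cytokine genes differed between cKO clones of young and of 4-month-old mice, P4M clones were compared with P28 clones, whose library names share the number 2963. In edgeR, 0 of the 4 members tested were called, beside 7.22% of all genes (3.34% higher, 3.88% lower; median of all genes -0.01). At an unadjusted p below 0.05 there were 2, Tnfrsf11a and Csf1, beside 25.8% of all genes, and DESeq2 called 1, Tnfrsf11a, beside 15% of all genes. All 4 P4M clones had less Tnfrsf11a than the lowest P28 clone, with a log2 difference of -2.34 (SE 0.689, edgeR adjusted p = 0.0547). Tnfrsf11a passed the filter only through the P28 clones, where it was high, so nothing is read from its tests in this comparison. DESeq2 gave an adjusted p of 0.00321 for it, an edgeR fit of those 2 groups alone, in which 18.3% of all genes were called, gave 0.0164, and the pooled counts gave a ratio of 0.205 (exact 95% counting interval 0.148 to 0.28). For Csf1 the log2 difference was 0.93 (SE 0.407, edgeR adjusted p = 0.167), with 3 of 4 P4M clones above every P28 clone. For Tnfsf11 the pooled counts gave a ratio of 0.188 (0.113 to 0.299), and the difference in mean of -0.487 CPM did not pass (exact permutation p = 0.0635). Without P28 cKO replicate 2, which had 61 of the 133 counts, that difference was -0.271 CPM, and without P28 cKO replicate 4 it was -0.61 CPM (exact permutation p = 0.0286).

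The order of the genes was then read from the length-corrected TPM. In WT clones the mean TPM was 256 ± 167 for Tnfrsf11b, 108 ± 59.0 for Csf1, 14 ± 9.15 for Il34, 0.018 ± 0.0268 for Tnfrsf11a and 0 for Tnfsf11. In P28 cKO clones it was 204 ± 83.8 for Csf1, 19.7 ± 7.26 for Tnfrsf11b, 11 ± 6.51 for Il34, 0.71 ± 0.396 for Tnfrsf11a and 0.474 ± 0.423 for Tnfsf11. In P4M cKO clones it was 335 ± 114 for Csf1, 18.8 ± 13.6 for Tnfrsf11b, 10.9 ± 6.72 for Il34, 0.0975 ± 0.045 for Tnfrsf11a and 0.0775 ± 0.0737 for Tnfsf11 (SD). Hence Tnfrsf11b led in WT and Csf1 in cKO clones. Neighbours whose values overlapped were Tnfrsf11b and Csf1 in WT, Tnfrsf11b and Il34 in both cKO groups, and Tnfrsf11a and Tnfsf11 in all 3 groups.

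Within a clone, the TPM ratio of Csf1 to Tnfrsf11b was 0.32, 0.364, 0.182, 0.736 and 0.984 in WT replicates 1 to 5. It was 8.6, 5.81, 8.99, 11.6 and 21.7 in P28 cKO replicates 1 to 5 and 31.6, 7.05, 48.6 and 21.3 in P4M cKO replicates 1 to 4. Every WT clone was below 1 and every cKO clone above 5. This split follows from the Tnfrsf11b and Csf1 levels given above and is no separate result. The ratio of Tnfrsf11b to Tnfsf11, decoy over ligand, was 65.8, 23.3, 18.1, 331 and 65.7 in P28 cKO replicates 1 to 5, and 106, 148 and 134 in P4M cKO replicates 1, 3 and 4. The decoy transcript thus exceeded the ligand transcript at least 18.1 times in every clone where Tnfsf11 was above 0. WT clones and P4M cKO replicate 2 have no such ratio, since Tnfsf11 is listed at 0 there. The ratio of Csf1 to Il34 ran from 1.58 to 41.3 (median 9.23) in WT, from 6.92 to 53.4 (19.0) in P28 cKO and from 21.4 to 99.5 (29.6) in P4M cKO clones, and the groups overlapped.

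**Figure D3:**
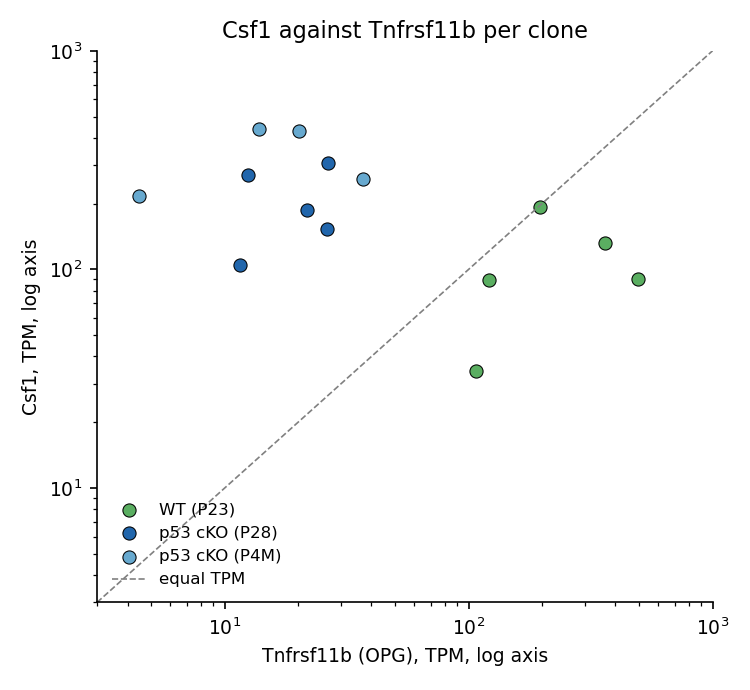
TPM of Csf1 (vertical, log axis) against TPM of Tnfrsf11b (horizontal, log axis) with 1 point per clone for WT (P23), p53 cKO (P28) and p53 cKO (P4M), and a dashed line of equal TPM. The 5 WT clones lie below the line, with ratios of 0.182 to 0.984, and the 9 cKO clones lie above it, with ratios of 5.81 to 48.6.

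Further genes acting on the same ligands were described as lists. Of 8 genes, for alternative receptors, decoys, shedding proteases and the ligand Tnfsf10, 7 were tested. In P28 cKO against WT, 3 of them were higher and 1 lower (list median 0.19). In P4M cKO against WT 2 were higher and 1 lower (median -0.08), and in P4M against P28 cKO 1 was higher (median -0.22). Mmp14, a membrane protease that can shed RANKL, rose from 176 ± 82.8 CPM in WT to 723 ± 77.6 in P28 cKO clones (log2 difference 2.04, edgeR adjusted p = 0.000317). Lgr4, an alternative RANKL receptor, fell from 88.3 ± 69.0 CPM in WT to 19.0 ± 4.96 in P4M cKO clones (-2.22, edgeR adjusted p = 0.00356), and its difference in P28 cKO clones was -1.40 (edgeR adjusted p = 0.0266), a call lost without any 1 of WT replicates 3 and 5 or of P28 replicates 2 and 3. Ptprz1, a receptor phosphatase that also binds IL-34, had 2, 0, 1, 0 and 7 counts in WT replicates 1 to 5. It reached 48.8, 106, 0.868 and 24.5 CPM in P4M cKO replicates 1 to 4, so that 3 of 4 clones were above the P28 range of 0.0717 to 3.68 CPM and replicate 3 lay inside it. Its log2 difference was 4.01 in P28 cKO and 9.22 in P4M cKO clones against WT, and 5.21 in P4M against P28 cKO (edgeR adjusted p = 0.036, 0.000541 and 0.0272). Ptprz1 passed the filter through the cKO clones, with 1 WT, 4 P28 and 4 P4M clones at its cut-off. Nothing is therefore read from its calls against WT. The P28 call was lost without any 1 of WT replicates 1 to 4 or of P28 replicates 4 and 5, and the call of P4M against P28 without any 1 of P28 replicates 1 and 3 or of P4M replicates 1 and 2. Without WT replicate 5 the differences from WT were 5.39 in P28 and 10.61 in P4M cKO clones, without P28 replicate 4 they were 2.95 in P28 against WT and 6.27 in P4M against P28, and without P4M replicate 2 they were 8.35 in P4M against WT and 4.35 in P4M against P28. Csf1r itself was low, at 0.0791 to 0.606 CPM in WT, 0.215 to 1.46 in P28 cKO and 0.319 to 1.16 in P4M cKO clones. Its log2 difference in P28 cKO against WT was 1.81 (edgeR adjusted p = 0.0365), a call lost in 7 of 14 fits without 1 clone (WT replicates 1, 2, 4 and 5 and P28 replicates 1, 3 and 4), and without WT replicate 3 the difference was 2.58. Csf1r also passed the filter through the cKO clones, with 1 WT, 4 P28 and 4 P4M clones at its cut-off, so nothing is read from that call.

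The share of all genes called, 38.9% in P28 and 45.9% in P4M cKO against WT and 7.22% in P4M against P28, is the background of each list. Of the receptor list, 4, 3 and 1 of 7 were called. All 15 genes of RANK signalling and NF-kB were tested, and 6, 8 and 0 of 15 were called in the same order. In P28 cKO against WT 3 were higher and 3 lower (list median 0.03), in P4M cKO against WT 7 were higher and 1 lower (median 0.09), and in P4M against P28 cKO edgeR called 0 (median 0.17). Ikbkg, the regulatory subunit of the IkB kinase complex, fell from 188 ± 103 CPM in WT to 67.8 ± 21.8 in P28 cKO clones (-1.47, edgeR adjusted p = 0.00276). Nfkb2, the p100 precursor of the non-canonical pathway, was 35.8 ± 7.18, 60.9 ± 15.9 and 78.8 ± 29.9 CPM in WT, P28 and P4M clones (0.77 and 1.14 against WT, edgeR adjusted p = 0.0244 and 0.00323). The P28 call of Nfkb2 was lost without any 1 of WT replicates 2 and 3 or of P28 replicates 2 and 3. Map3k7, the kinase TAK1 that lies below TRAF6, rose by 0.92 in P4M cKO clones (edgeR adjusted p = 0.00288). Called differences in this list lay between -1.47 and 1.14.

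All 14 genes listed as acting upstream of Tnfsf11 in stromal cells were tested. They were hormone, cytokine and nuclear receptor genes and the transcription factor genes Stat3 and Creb1. In P28 cKO against WT 2 were higher and 1 lower (list median 0.15), in P4M cKO against WT 4 were higher and 3 lower (median -0.08), and in P4M against P28 cKO 1 was lower (median -0.20). Ptger4, the prostaglandin E2 receptor EP4, was 0.201 ± 0.119 CPM in WT, 2.18 ± 1.39 in P28 cKO and 3.36 ± 2.17 in P4M cKO clones. All 9 cKO clones, at 0.435 CPM or more, were above every WT clone, at 0.358 CPM or less (3.43 and 4.05, edgeR adjusted p = 0.0017 and 0.000589). Ptger4 passed the filter through the cKO clones, with 2 WT, 5 P28 and 4 P4M clones at its cut-off, so nothing is read from these calls. Pth1r, the parathyroid hormone receptor, was called higher in P4M cKO clones (3.54, edgeR adjusted p = 0.0316), a call lost without any 1 of WT replicates 3 and 5 or of P4M replicates 1 and 2, with a difference of 4.21 without WT replicate 2. Il6st, the shared receptor subunit gp130, was called higher in P28 cKO clones (0.78, edgeR adjusted p = 0.0293), a call lost in 5 of 14 fits without 1 clone (WT replicates 1, 4 and 5 and P28 replicates 1 and 3). Il11ra1, the interleukin-11 receptor, was 73.3 ± 40.8 CPM in P28 and 20.5 ± 8.54 in P4M cKO clones (-1.83, edgeR adjusted p = 0.0234), a call lost without any 1 of P28 replicates 1 and 3 or of P4M replicates 1 and 2.

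Of 20 other secreted or prostaglandin-forming factors of stromal cells that act on osteoclasts, 12 were tested. In P28 cKO against WT 3 were higher and 0 lower (list median 1.35), and in P4M cKO against WT 6 were higher and 0 lower (median 2.01). In P4M against P28 cKO 2 were higher and 1 lower (median 0.73). The list joins factors that favour osteoclasts with factors that restrain them. Sema3a, a semaphorin that restrains osteoclast formation, was 24.1 ± 15.1 CPM in WT, 125 ± 71.0 in P28 cKO and 23.8 ± 5.63 in P4M cKO clones. It was higher in all 5 P28 clones (78.3 CPM or more) than in any WT or P4M clone (2.38 against WT and -2.40 in P4M against P28, edgeR adjusted p = 0.000978 and 0.0122). Wnt4, a Wnt ligand reported to inhibit NF-kB in osteoclast precursors, was 402, 484, 221 and 244 CPM in P4M cKO replicates 1 to 4. It was 0, 0.421, 0.323, 0.227 and 19.4 CPM in WT and 1.78, 2.25, 0.874, 13.4 and 8.5 CPM in P28 cKO replicates 1 to 5, all far below the P4M clones (6.38 against WT and 5.98 against P28, edgeR adjusted p = 0.00457 and 0.0311). The Wnt4 call of P4M against P28 was lost in 6 of 14 fits without 1 clone (P28 replicates 1, 2 and 3 and P4M replicates 1, 2 and 4). Without WT replicate 5, the 1 WT clone at 19.4 CPM, the Wnt4 difference of P4M against WT was 10.46, and without P28 replicate 4 that of P4M against P28 was 6.67. Ccl2, a chemokine for monocytes, was 0.373 ± 0.552 CPM in WT and 5.65 ± 2.91 in P28 cKO clones (3.94, edgeR adjusted p = 0.0158; 5.39 without WT replicate 5). Ccl2 passed the filter through the cKO clones, with 2 WT, 5 P28 and 4 P4M clones at its cut-off, so nothing is read from its call. Il11, a gp130 cytokine, was called higher in P4M cKO clones (3.58, edgeR adjusted p = 0.0308), but its mean of 7.42 ± 11.3 CPM rested on a highest clone at 24.2 CPM, and the call was lost in 5 of 14 fits without 1 clone (WT replicates 2 to 5 and P4M replicate 4). Its difference was 1.57 without P4M replicate 4 and 4.45 without WT replicate 1.

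**Figure D4:**
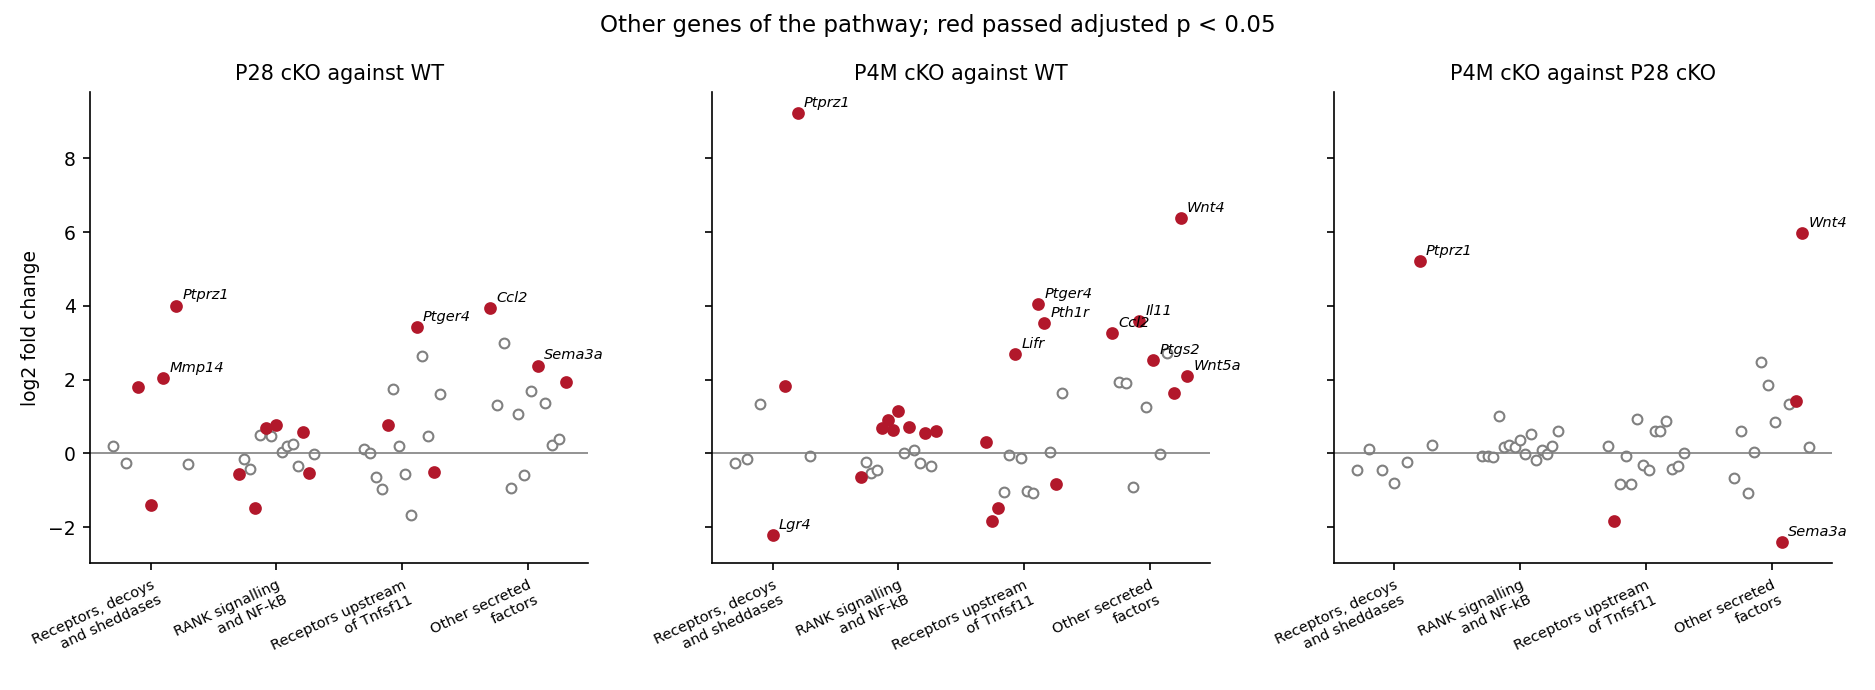
Fitted log2 differences (vertical axis) of the tested genes in 4 lists (horizontal axis, genes in alphabetical order) for 3 comparisons, with red points for adjusted p below 0.05 and names for called genes beyond 2 in either direction. Ptprz1 and Wnt4 stand highest in P4M cKO clones, at 9.22 and 6.38 against WT, while RANK signalling and NF-kB genes lie between -1.47 and 1.14 where called. Ptprz1 passed the filter on low counts through the cKO clones, so nothing is read from its calls against WT.

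Because RANK and CSF1R are receptors of the osteoclast lineage, markers of the blood lineages were set beside the members. Of 10 osteoclast markers 7 were tested. In P28 cKO against WT 2 were higher (Acp5, Mmp9) and 2 lower (Ctsk, Atp6v0d2), in P4M cKO against WT 2 were higher (Mmp9, Itgb3) and 1 lower (Ctsk), and in P4M against P28 cKO 0 were called by edgeR; Mmp9, at no more than 7.17 CPM, is named after its values were seen, and its P4M call was lost without any 1 of WT replicates 2, 4 and 5 or of P4M replicate 2. The Mmp9 differences of 5.25 in P28 and 3.81 in P4M cKO clones were 3.05 without P28 replicate 3 and 2.51 without P4M replicate 2. The summed level of the 10 genes ranged from 174 to 408 CPM in WT, 93.9 to 169 in P28 cKO and 73.4 to 266 in P4M cKO clones. Its largest parts were Ctsk and Nfatc1, at 129 to 358 and 36.1 to 65.7 CPM in WT. Dcstamp, needed for osteoclast fusion, had 0 counts in all 14 clones, and Calcr had 0 in WT. Acp5, the tartrate-resistant acid phosphatase TRAP, had 0, 0, 0, 1 and 2 counts in WT and 525, 25, 135, 110 and 1 in P28 cKO replicates 1 to 5 (7.11, edgeR adjusted p = 0.0022; 8.20 without WT replicate 5 and 5.82 without P28 replicate 1). Acp5, like Tnfrsf11a, passed the filter through the P28 clones, where it was high, with 4 P28, 2 P4M and 0 WT clones at its cut-off, and Mmp9 did so with 4, 3 and 0 clones. A gene that passes in this way has to differ from WT, so nothing is read from these calls. In P28 cKO replicate 5, where Tnfrsf11a was highest at 2.41 CPM, Acp5 had 1 count, and in replicate 1, where Acp5 was highest at 11.3 CPM, Tnfrsf11a was lowest of the P28 clones at 0.451 CPM. Ctsk, the collagen-degrading cathepsin K, was 257 ± 117 CPM in WT, 61.1 ± 26.7 in P28 cKO and 74.1 ± 87.3 in P4M cKO clones, with log2 differences of -2.07 and -1.79 (edgeR adjusted p = 0.0147 and 0.0345); the P4M call was lost without any 1 of WT replicates 2 to 4 or of P4M replicates 1, 2 and 4, and without P4M replicate 3 the difference was -3.06. Atp6v0d2, a proton pump subunit, was lower by 5.21 in P28 cKO clones (edgeR adjusted p = 0.00316), with a difference of -6.54 without P28 replicate 2. Atp6v0d2 passed the filter through the WT clones, where it was high, with 5 WT, 1 P28 and 3 P4M clones at its cut-off. Nothing is therefore read from that call. Itgb3, an integrin subunit, rose by 1.97 in P4M cKO clones (edgeR adjusted p = 0.0283), a call lost without any 1 of WT replicates 2 and 5 or of P4M replicate 4, and its difference was 2.68 without WT replicate 3.

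Of 10 monocyte and macrophage markers 5 were tested, and 1 was higher and 2 lower in each comparison with WT. The lower ones were Cd68 (-3.47 in P28 and -2.81 in P4M cKO clones, edgeR adjusted p = 0.00275 and 0.0104) and Lyz2 (-2.30 and -3.61, edgeR adjusted p = 0.0201 and 0.00328), with the P28 call of Lyz2 lost without WT replicate 4 (0.0539). Without WT replicate 4 the Cd68 differences were -2.47 and -1.81, without P4M replicate 3 that of P4M was -3.53, and without P4M replicate 2 the Lyz2 difference of P4M was -4.22. The higher ones were Csf1r in P28 and Fcer1g in P4M cKO clones, and Fcer1g, at no more than 1.7 CPM and named after its values were seen, was also the 1 gene higher in P4M against P28 cKO. Fcer1g passed the filter only through the 4 P4M clones, where it was high, with 0 WT and 0 P28 clones at its cut-off, so nothing is read from its calls. Without P4M replicate 3 its differences of 3.89 against WT and 2.48 against P28 were 3.16 and 1.74. The summed level of the list was 17.7 to 158 CPM in WT, 13.0 to 26.1 in P28 cKO and 15.7 to 26.7 in P4M cKO clones. Adgre1 and Tyrobp had 0 counts in all WT clones. Of 7 lymphocyte markers 0 were tested, and their summed level did not exceed 0.119 CPM. Of 5 endothelial markers 1 was tested, Kdr, a VEGF receptor, which rose by 3.61 in P28 and 5.56 in P4M cKO clones (edgeR adjusted p = 0.019 and 0.00224), with Cdh5 at 0 counts throughout. Without WT replicate 4 the Kdr differences were 7.03 and 8.98, and without P28 replicate 2 that of P28 was 2.92. Kdr passed the filter through the cKO clones, with 1 WT, 5 P28 and 4 P4M clones at its cut-off, so nothing is read from its calls. The summed endothelial level was 0.0809 to 0.739 CPM in WT, 0.41 to 4.49 in P28 cKO and 2.75 to 12.8 in P4M cKO clones. All 8 skeletal stromal markers were tested, of which 2 were higher in P28 and 3 in P4M cKO against WT, with 0 called by edgeR in P4M against P28. Col1a1 rose by 6.22 and 6.72 (edgeR adjusted p = 0.00819 and 0.00537) and Runx2, the osteoblast transcription factor, by 1.16 and 1.90 (edgeR adjusted p = 0.00555 and 0.000294). Without WT replicate 5, which had 1028.3 CPM, the Col1a1 differences were 8.76 and 9.25, and without P4M replicate 2 that of P4M was 6.13. The summed stromal level was 403 to 5853.5 CPM in WT, 27103.8 to 44312.4 in P28 cKO and 16275 to 84700.9 in P4M cKO clones. In cKO clones most of it was Col1a1 and Col1a2, with means of 17834.4 and 16311.8 CPM in P28. Col1a2, Prrx1, Pdgfra and Pdgfrb were not called in any comparison. The part of such marker differences in the values of the 5 cytokine genes was not tested, and in bulk RNA, fewer cells with a transcript and less of it per cell cannot be told apart.

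**Figure D5:**
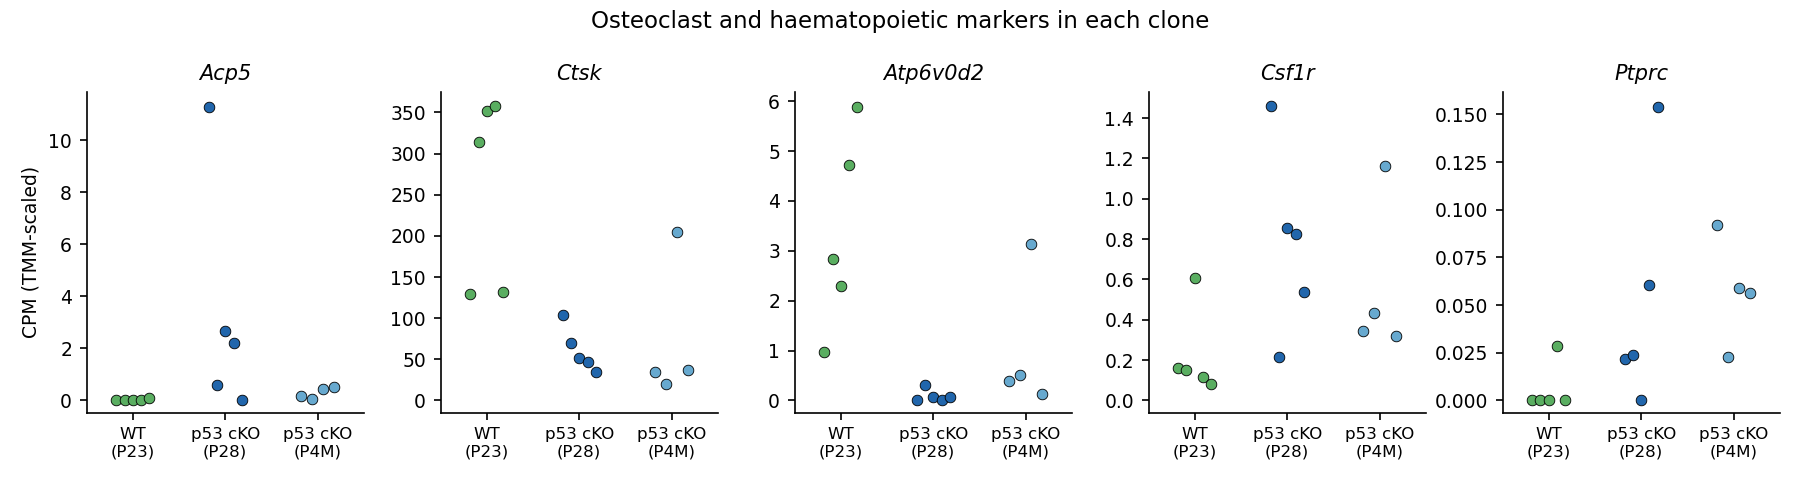
CPM (TMM-scaled, linear axes) of 3 osteoclast markers (Acp5, Ctsk, Atp6v0d2), Csf1r and the pan-haematopoietic gene Ptprc in each clone, with points in replicate order for WT (P23), p53 cKO (P28) and p53 cKO (P4M). Acp5 is highest in P28 cKO replicate 1 at 11.3 CPM, Ctsk is highest in WT clones, and Ptprc does not exceed 0.154 CPM.

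Lastly, the genes whose levels ran most like each member were sought among 11650 genes by Pearson's r of log2 CPM over the 14 clones, as a description, since clones of a group share genotype, age and the number in the library name. For Tnfrsf11b they were Zdhhc24 (r = 0.949), Galnt14 (0.936) and Dusp12 (0.936). For Tnfrsf11a they were Skp2, an F-box protein of the cell cycle (0.947), Srd5a1 (0.947) and Cenpw, a centromere protein (0.925). Csf1 ran with Foxq1, a forkhead factor (0.952), Alpl, the mineralizing alkaline phosphatase (0.946), and Syn1 (0.932). Il34 ran with Lyst (0.807), Sbno2 (0.800) and Rpusd2 (0.764). With the group means removed, the values for the leading gene were 0.649 for Tnfrsf11b, 0.725 for Tnfrsf11a, 0.910 for Csf1 and 0.838 for Il34. Thus the likeness of Csf1 to Foxq1 was nearly as high within groups as over all clones, and that of Tnfrsf11b to Zdhhc24 was lower within groups. Each leading gene was picked from the 11650 by its r over these same clones. The values within groups are therefore no independent check.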

How the data were processed

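RNA from 14 clones was prepared with the SMART-Seq v4 kit. The authors' processing notes name FastQC, TopHat, Bowtie2, HTSeq and DESeq2 and the build mm10; versions are not given in the sources used here. The authors deposited raw HTSeq counts per gene, and tables of TPM and FPKM that they corrected for gene length and rounded. Deposited depth-normalized, rlog and expected-count columns were not used here. Samples were grouped by source name, 0 pairs of clones held identical counts, and depth is given with the results.

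Counts were fitted with edgeR 4.0.16 (R 4.3.3; TMM, filterByExpr, robust quasi-likelihood F-test, 17358 genes, 3 groups in 1 model) and p-values were adjusted over all genes (Benjamini-Hochberg, 0.05). Tnfsf11 failed the filter, so after its values were seen an exact two-sided permutation test of CPM replaced the planned edgeR test. Ratios used TPM per clone, with no test. The ratio of Csf1 to Tnfrsf11b was not among the planned ratios. Positions came from GENCODE M21 and promoters from RefSeq. TATAA and CpG were counted after the other motifs had no match.

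Alternatives were DESeq2 1.42.0, RLE or no scaling, no filter, at least 10 counts in every clone, the compared groups alone, a minimum log2 difference of 1, limma 3.58.1 on log2(TPM + 1), permutation of log2 CPM (prior count 2) and leaving out each clone. The text names every member, and for each list and comparison the 2 called genes with the largest change among genes whose average log2 CPM was 0 or more, the 3 genes nearest to each tested member (average log2 CPM of 1 or more), and defining cell type markers. The members and lists were chosen with earlier results of these data known.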

Additional observations from a re-analysis of the deposited data

Results flagged for a closer look

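In P28 cKO clones, Il34 was 14.2 CPM in replicate 2, apart from the other 4 clones, of which the next was 5.87 CPM. The gap took 0.75 of the range of the group, beyond the 95% limit of Dixon's test for 5 samples. Of 14 groups of values tested this was the 1 that passed, and chance passes about 1 in 20. Without that clone the log2 difference of P28 cKO against WT was -1.07 (edgeR adjusted p = 0.272). The same clone had the highest Tnfsf11 of all clones, at 1.46 CPM.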

How the results depend on the processing

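The falls of Tnfrsf11b against WT kept their direction and stayed past the threshold under every alternative that gave a value. So did the difference of Tnfrsf11a in P28 cKO against WT, but this gene passed the filter only through the P28 clones. The Tnfsf11 difference of P28 cKO against WT did so too. With 0 counts in every WT clone and counts in every P28 clone, its permutations could give only the smallest p possible. Nothing is read from the stability of these 2 genes. With at least 10 counts in every clone, Tnfrsf11a and Tnfsf11 gave no value and members called in P28 cKO against WT went from 2 to 1 (41.3% of all genes called). A minimum log2 difference of 1 called 1631 genes in P28 and 2387 in P4M cKO against WT and 47 in P4M against P28, in place of 6750, 7970 and 1254. In P4M cKO against WT it left 1 of 3 member calls (13.8% of all genes), with Tnfrsf11a at 2.34 (adjusted p = 0.129) and Csf1 at 1.67 (0.104) no longer called; limma on TPM put Tnfrsf11a at 0.11 (0.541), where the pseudocount of 1 exceeds its TPM in every clone of both groups. Without a filter, Tnfsf11 in P4M cKO against WT was called (5.19, adjusted p = 0.0401). In P4M against P28 cKO, members called went from 0 to 1 with DESeq2, with limma and with the compared groups alone, where all genes called went from 1254 to 2607, 1570 and 3051 (7.22% to 15%, 9.04% and 18.3%). Tnfrsf11a passed there at -2.35 (DESeq2), -2.34 (compared groups alone), -0.61 (limma) and -1.96 (exact permutation p = 0.0159). Csf1 passed by exact permutation at 0.96 (p = 0.0476), and the cause was not tested. Tnfrsf11a entered each of these fits through the P28 clones, where it was high, so nothing is read from how many it passed. Uncalled differences changed sign for Tnfrsf11b in P4M against P28 (-0.30 with limma, -0.15 by permutation) and for Il34 (-0.11 with limma).

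Leaving out 1 clone at a time, members called ranged from 2 to 3 (P28 against WT), 2 to 4 (P4M against WT) and 0 to 1 (P4M against P28), counting Tnfsf11 in fits where it passed the filter. The share of all genes called was not taken in those fits, so nothing is read from these counts. In P28 against WT the differences ranged from -4.20 to -3.60 for Tnfrsf11b, 4.32 to 5.40 for Tnfrsf11a, 0.49 to 1.01 for Csf1, -1.07 to -0.29 for Il34 and 0.379 to 0.718 CPM for Tnfsf11. In P4M against WT they ranged from -4.41 to -3.47, 2.06 to 3.06, 1.43 to 1.94, -0.80 to 0.04 and 0.0746 to 0.144 CPM, in the same order. In P4M against P28 they ranged from -0.45 to 0.46, -2.55 to -1.96, 0.78 to 1.11, -0.26 to 0.75 and -0.61 to -0.271 CPM. Tnfrsf11a in P4M against P28 was called in 5 of 14 such fits (without any 1 of the WT clones). Tnfsf11 in P4M against WT passed without P4M cKO replicate 2 (0.144 CPM, exact permutation p = 0.0357). Signs changed for Il34 in P4M against WT without P4M cKO replicate 2 (0.04), for Tnfrsf11b in P4M against P28 without P28 cKO replicate 3 (-0.0007) or P4M cKO replicate 2 (-0.45), and for Il34 there without P4M cKO replicate 4 (-0.26). Of 41 named list differences, 16 were called under every alternative that gave a value, 25 were lost under at least 1, 14 of them without 1 clone, and 0 changed sign. The 16 include calls of Acp5, Atp6v0d2, Ptger4, Ptprz1, Kdr and Fcer1g. These genes passed the filter through the clones where they were high, and had no value in some alternatives. Nothing is therefore read from that count. No paired analysis was possible because replicate numbers were given in accession order. At a few counts per clone, depth limits Tnfsf11 and Tnfrsf11a in WT and P4M clones.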
